A study of Nothobranchius furzeri with 68 samples.

Results

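The 4 genes described here are ppara, ppargc1a, pdk4 and angptl4 of the turquoise killifish, Nothobranchius furzeri, an annual fish with a short lifespan. They were taken by name from 25065 genes counted in both tissues, and all 4 passed the filter on low counts in liver and in muscle. ppara encodes a nuclear receptor, and ppargc1a encodes a coactivator of that and other nuclear receptors. pdk4 encodes a kinase that switches off pyruvate dehydrogenase, and angptl4 encodes a secreted inhibitor of lipoprotein lipase. The table's gene named ppara was taken as it stands, and a second column with the RefSeq symbol pparab is given beside it as a paralogue.

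In mammals, fasting frees fatty acids that bind PPAR alpha, which pairs with a retinoid X receptor and raises the transcription of genes for fatty acid transport and oxidation in the liver. PGC-1 alpha, the product of ppargc1a, is induced in the fasted mouse liver and also serves gluconeogenesis. Pdk4 and Angptl4 are standard PPAR target genes in the mouse. The first spares pyruvate from oxidation, and the second directs circulating triglyceride away from the tissue that makes it.

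RNA was sequenced from the livers of 41 fish (12 groups) and the muscles of 27 of them (8 groups), 68 libraries in all, with 3 or 4 fish in a group. Age was 6.5 weeks in young and 15 weeks in old fish. Fish were male or female, and wild type (WT) or heterozygous (Het) for aprt, the gene of an enzyme that makes AMP from adenine. Male livers came from fish fed ad libitum or fasted for 24 h, and female livers and all muscles came from fasted fish. The aprt allele is not named in the labels. Libraries held 19949104 to 31600126 counts in liver and 24144462 to 31331150 in muscle.

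Expression is given in counts per 1000000 (CPM) after TMM scaling, which sets library sizes by the bulk of the genes. Hepatocyte markers summed to at least 37156 CPM in every liver, and muscle markers to at least 132158 CPM in every muscle. The muscle of old Het male 25 held 2697 CPM of hepatocyte markers, where the next muscle held 132.5 CPM. The liver of fed old WT male 5 held 285.5 CPM of skeletal muscle markers, where the next liver held 49.57 CPM. That of fed old WT male 4 held 228.9 CPM of leukocyte markers, where the median of fed livers was 13.39 CPM. The part of these in the comparisons was not tested. Hepatocyte markers were also lower in fasted female livers (37156 to 76528 CPM) than in most fasted male livers (74555 to 153780 CPM). In those female livers, the vitellogenin vtg3 took 1.54% to 5.56% of the counts, and the 10 most abundant genes of a library took 29.5% to 58.9%, against 17.4% to 30.4% in males. The mean aprt level was lower in Het fish in 10 of 10 pairs of groups, and every Het library was below every WT library in 6 of them. Old female 21, labelled Het, had aprt at 11.9 CPM in liver and 10.1 CPM in muscle, within the range of the WT females of its age (10.5 to 12.7 and 8.51 to 11.8 CPM), so the comparisons and relations that use its libraries were repeated without them. No call of the 4 genes in a comparison changed. In bulk tissue, fewer cells of a type and less RNA per cell cannot be told apart.

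**Figure D1:**
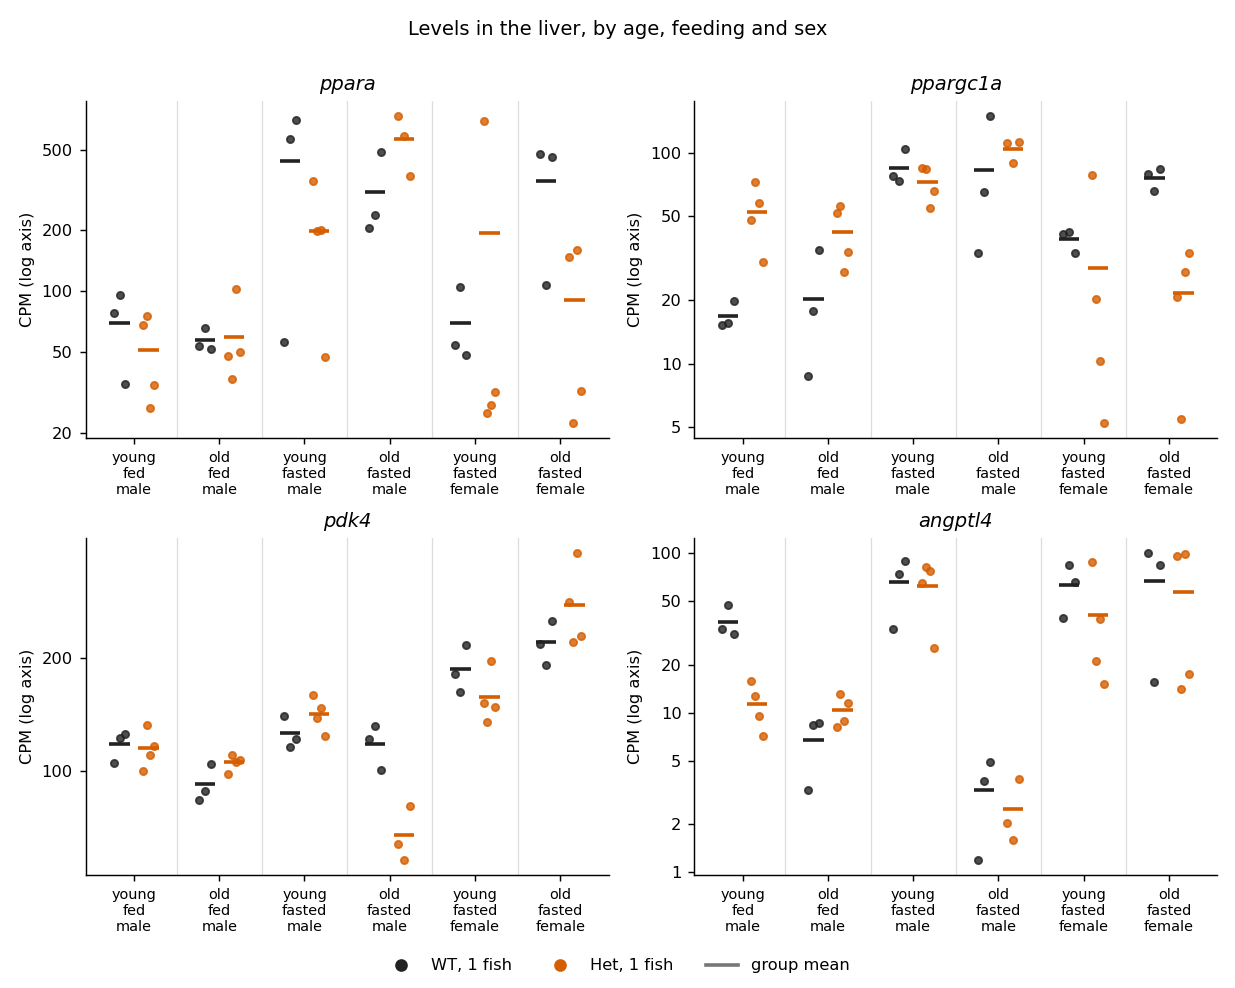
Levels of the 4 genes in 41 livers in CPM on a log axis, 1 point per fish and a bar at each group mean, by age, feeding, sex and genotype. In males, fasted livers spread far more widely than fed livers for ppara (47.1 to 731 CPM against 26.7 to 103 CPM), and angptl4 of the 6 fasted old males lies below 5 CPM.

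The liver response to fasting was measured in males, in young and old WT and Het fish. ppara and ppargc1a, the receptor and its coactivator, rose with fasting in the mean over the 4 backgrounds, by 2.57 ± 0.47 (SE) and 1.54 ± 0.295 on the log2 scale. pdk4 and angptl4 had mean responses near 0. For angptl4 that mean covered a rise in young Het males and a fall in old Het males. In the mean response 47.6% of 17406 genes were called (edgeR quasi-likelihood test, Benjamini-Hochberg adjusted p under 0.05), so calls for 2 of the 4 genes are near the background share.

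ppara in fed livers ranged from 34.9 to 95.4 CPM in young WT, from 26.7 to 75.5 in young Het, from 52.1 to 65.6 in old WT and from 36.9 to 103 in old Het males. Fasted young WT males were at 56.2, 566 and 698 CPM. Fasted young Het males were at 349, 198, 201 and 47.1 CPM. These young groups each held 1 fish, 31 and 41, within the range of the fed fish, while the other fasted young males were above every fed male of their genotype. Fasted old WT males were at 204.5, 236.5 and 485 CPM and fasted old Het males at 731, 582 and 369.9 CPM. In old males every fasted liver was above every fed liver of its genotype, a separation seen in 35.1% of genes in WT and 38.1% in Het.

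The fold rise of ppara was 6.32 in young WT males (log2 2.66 ± 0.994 SE, edgeR adjusted p 0.0813), 3.89 in young Het (1.96 ± 0.84, 0.121), 5.4 in old WT (2.43 ± 0.986, 0.062) and 9.43 in old Het (3.24 ± 0.912, 0.00682). Of these only the last passed the test, in a comparison that called 31.8% of genes, and it was kept in 7 of 7 leave-one-out fits. The mean response was 5.95-fold (edgeR adjusted p 3.05e-05) and was kept in 27 of 27 leave-one-out fits. Without fish 31 the response of young WT males was 3.18 (edgeR adjusted p 0.0342). Neither age nor genotype had a called difference in the ppara response: old minus young was 0.52 ± 0.89, with a 95% interval of the difference from -1.22 to 2.27.

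ppargc1a in fed WT males was at 15.3, 15.6 and 19.7 CPM in young and at 8.69, 17.8 and 34.6 in old fish. In fed Het males it was at 47.8, 72.8, 58.1 and 30.4 CPM in young and at 51.6, 56, 27.3 and 33.9 CPM in old fish. Fed young Het livers were thus all above fed young WT livers. After fasting it stood at 77.7, 73.3 and 104 CPM in young WT, and at 85.2, 84.2, 54.8 and 66.2 CPM in young Het males. Old fasted males were at 33.6, 65.1 and 149 CPM in WT and at 111, 89.8 and 113 CPM in Het. The fasted and fed livers did not overlap in young WT males, as in 32.7% of genes, or in old Het males, as in 38.1%. They overlapped in the other backgrounds.

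The response of ppargc1a was called in young WT males, at 2.34 ± 0.64 (edgeR adjusted p 0.0155, 10.7% of genes called), and in old WT males, at 2.03 ± 0.632 (edgeR adjusted p 0.0152, 28.9% called). In young Het males it was 0.47 ± 0.528 (edgeR adjusted p 0.626), and in old Het males 1.31 ± 0.566 (0.0764). The young call was lost without fed fish 45, 46 or 47 or fasted fish 33, with changes of 2.16 to 2.46 and adjusted p of at most 0.069. The old call was lost without fed fish 4 (1.66) or 5 (1.94), or without fasted fish 20 (1.28). Fed fish 4 and 5 are those named above for leukocyte and skeletal muscle markers. The response differed between Het and WT by -1.86 ± 0.813 in young males (edgeR adjusted p 0.348) and by -0.72 ± 0.836 in old males (0.704), so neither difference was called. Fitted on the young male groups alone, the young difference passed at -1.84 (edgeR adjusted p 0.016). The mean response over the 4 backgrounds was 2.9-fold (edgeR adjusted p 6.01e-05), and was kept in 27 of 27 leave-one-out fits.

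The highest pdk4 level of a liver group was at most 1.73 times the lowest, where that ratio reached 27.7 for ppara, 15.0 for ppargc1a and 7.01 for angptl4. Fed males were between 84.1 and 133 CPM. Fasted young males were at 140, 116 and 122 CPM in WT and at 160, 139, 147.5 and 124 CPM in Het. Old WT males were at 122, 132 and 101 CPM when fasted. Old Het males were at 98.6, 111, 106 and 107.5 CPM when fed, and at 63.9, 58.2 and 80.8 CPM when fasted. In old Het males all fasted livers lay below all fed livers, where 38.1% of genes separated in either direction. These 3 fasted livers had the lowest pdk4 values of all 41 livers.

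The fall of pdk4 in old Het males was -0.65 ± 0.168 (edgeR adjusted p 0.00382, called in 7 of 7 leave-one-out fits, 31.8% of genes called). With scaling by total counts it was -0.51 and lost its call (edgeR adjusted p 0.0719). The responses of pdk4 in the other backgrounds were 0.1 ± 0.177 in young WT, 0.31 ± 0.154 in young Het and 0.36 ± 0.178 in old WT males, none called. The response of old Het males minus that of old WT males was -1.0 ± 0.244 (edgeR adjusted p 0.0391, where 1.25% of genes were called). That call held in 5 of 13 leave-one-out fits, the weakest being that without old WT fed fish 5 (edgeR adjusted p 0.14), and it was lost with total counts (-0.70) or with no filter on low counts (-1.02). Between Het and WT young males, where 1.53% of genes were called, the pdk4 response differed by 0.21 ± 0.235, which did not pass.

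angptl4 moved in opposite directions in young and old males. In fed young fish it was at 33.2, 47.1 and 31.1 CPM in WT and at 15.8, 12.7, 9.5 and 7.08 CPM in Het. When fasted, young WT males were at 33.3, 73.7 and 89.4 CPM and young Het males at 65.2, 82, 76.9 and 25.3 CPM. Fed old males were at 3.29, 8.37 and 8.59 CPM in WT, and at 8.15, 13.1, 8.82 and 11.5 CPM in Het. Fasted old males were at 1.19, 3.74 and 4.91 CPM in WT and at 2.04, 1.6 and 3.86 CPM in Het. The 2 Het backgrounds therefore separated fed from fasted fish completely, upward in the young and downward in the old. Of all genes, 22.6% separated in either direction in young Het and 38.1% in old Het males. Both WT backgrounds overlapped in angptl4. The lowest library still held 51 angptl4 counts.

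The response of angptl4 was 5.53-fold upward in young Het males (2.47 ± 0.61, edgeR adjusted p 0.00719, called in 8 of 8 leave-one-out fits, 13.5% of genes called). In old Het males it was -2.06 ± 0.689 (edgeR adjusted p 0.0216, 31.8% of genes called), and this call was lost without fasted fish 25 (-1.93) or 26 (-1.82). In WT fish the values were 0.82 ± 0.669 in young and -1.05 ± 0.7 in old males, neither called. The old minus young difference, over both genotypes, was -3.20 ± 0.667 on the log2 scale (edgeR adjusted p 0.0135). It was called in 27 of 27 leave-one-out fits, ranging from -3.43 to -2.99, in a comparison that called 1.01% of genes. No other of the 4 genes had a called age difference in its response.

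**Figure D2:**
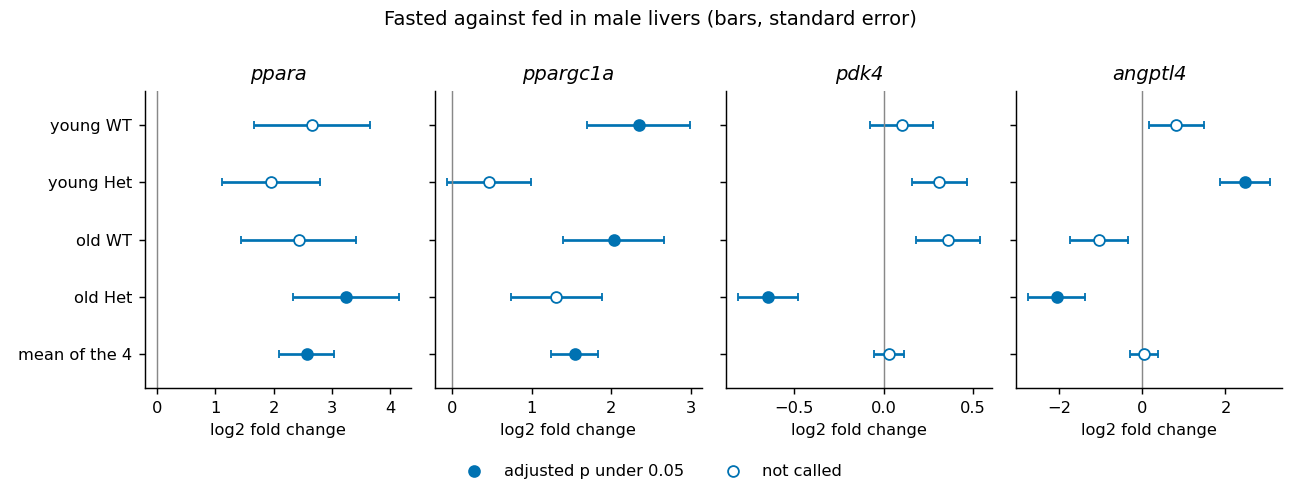
Fasted against fed in male livers, as log2 fold changes with standard errors, for each of the 4 genes in 4 backgrounds of age and genotype and their mean. Filled points passed the test. ppara and ppargc1a lie right of 0 in every background, whereas angptl4 lies at 2.47 in young Het and at -2.06 in old Het males.

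Genes that act with these 4 were followed in a list of 93 further genes in 9 roles, of which 91 were tested in liver. In the mean fasting response 25 rose and 24 fell, where 24% of all genes rose and 23.6% fell, with a median of -0.01 beside 0.02 for all genes. Among the receptors, 4 of 7 rose and none fell: rxrgb (LOC107393220), a retinoid X receptor, by 1.19 ± 0.118, ppard by 0.55 ± 0.111 and pparg by 0.55 ± 0.191. By background, pparg was at 2.23 in young WT and 0.97 in old WT males, but at -0.72 in young Het and -0.26 in old Het. ppard was at 1.23 in young WT, 0.85 in old WT, -0.19 in young Het and 0.33 in old Het males. Of these, pparg was called in young WT males alone, and ppard in young and old WT males. The paralogue pparab was at 5.14 to 15.8 CPM in fed and 5.85 to 19.4 CPM in fasted male livers, a response of 0.22 that was not called. Of 14 coregulators 6 rose, among them lpin1, a phosphatidate phosphatase that also coactivates PPAR alpha in mouse, by 1.19 ± 0.414 from at most 1.86 CPM in fed to at most 4.18 CPM in fasted males, and crebbp, an acetyltransferase, by 0.77 ± 0.1. ncor1, a corepressor of nuclear receptors, fell by 1.08 ± 0.174.

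Among 10 tested transcription factors of the fasting response 6 rose and 1 fell. foxo3a (LOC107391983) rose by 2.01 ± 0.308, foxo1 by 1.75 ± 0.314 and hnf4a, a regulator of hepatocyte genes, by 1.26 ± 0.189. By background, foxo1 was at 3.12 in young WT and 2.91 in old WT males, both called. It was at -0.22 in young Het and 1.20 in old Het males, neither called. Enzymes of mitochondrial fatty acid oxidation, the classical PPAR alpha targets of the mouse liver, went the other way: 0 of 19 rose and 12 fell, with a median of -0.35. hadha, a subunit of the trifunctional protein, went from 114 to 186 CPM in fed to 35.6 to 161 CPM in fasted males, a log2 change of -1.01 ± 0.145. cpt2, the inner carnitine palmitoyltransferase, changed by -0.97 ± 0.126 and slc25a20, the carnitine-acylcarnitine carrier, went from 45 to 69.8 CPM in fed to 17.2 to 53.5 CPM in fasted males, a change of -0.95 that was called.

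Of 9 peroxisomal genes 1 rose and 6 fell, at a median of -0.72. The transporter abcd2 fell by 1.17 ± 0.159, the oxidase acox3 by 1.14 ± 0.0935 and the bifunctional enzyme ehhadh by 0.77 ± 0.119. For ketone bodies, acat1 rose by 0.34 ± 0.0789 and oxct1 fell by 0.36 ± 0.106; fgf21 was below the filter. Among 9 genes of fatty acid uptake and lipid droplets 2 rose: pnpla2 (LOC107388678), the gene of adipose triglyceride lipase, by 3.03 ± 0.438, and the droplet coat gene plin2 by 1.32 ± 0.42. In the lipoprotein lipase system apoc2, the activator of that lipase, fell by 0.42 ± 0.112, while lpl was at 0.09. Around pyruvate dehydrogenase 3 of 14 genes rose and 2 fell. The kinase genes other than pdk4 split, with pdk3 at 1.58 ± 0.187, pdk2a (LOC107387611) at 0.89 ± 0.254 and pdk1 at -0.53 ± 0.163, all called. pdk1 was low, at 1.02 to 2.14 CPM in fed and 0.652 to 2.04 CPM in fasted males. By background, pdk2a was at 1.24 in young WT, 2.01 in young Het, 0.01 in old WT and 0.31 in old Het males. It was called in young Het males alone (8 of 8 leave-one-out fits). All of these named calls in the mean response were kept in 27 of 27 leave-one-out fits, except that pparg kept its call in 26. Of the calls named above in single backgrounds, ppard in old WT males was kept in 4 of 6 fits. Those of ppard and pparg in young WT males and of foxo1 in young and old WT males were kept in 6 of 6.

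In single backgrounds, the fall of the mitochondrial oxidation genes was counted in old males, at 11 of 19 in WT and 13 of 19 in Het, where 15.6% and 16.3% of all genes fell. The 19 include acadsb, which was matched to acads by its name though it is a different enzyme. It is among the 11 in old WT males (-0.38, edgeR adjusted p 0.039, called in 2 of 6 leave-one-out fits). Of the others there, acadvl was called in 2, acsl1 in 4 and acadl in 5 of 6 fits, and the rest in 6 of 6. A fit of only the old WT groups called 943 genes in all, where the main fit called 5033. For old Het males these counts were 5007 and 5528, for young WT 2059 and 1854, and for young Het 3041 and 2352. In young males 0 of 19 fell in WT and 1 of 19 in Het (edgeR), where 4.14% and 7.12% of all genes fell. cpt1b, a muscle-type carnitine palmitoyltransferase, rose by 2.17 ± 0.397 in young Het males (edgeR adjusted p 0.00056, 8 of 8 fits) and fell by 1.31 ± 0.433 in old Het males (0.0199, 5 of 7 fits). The old minus young difference of the response was itself called as negative for 8 of these 19 genes and for abcd2, the 9 called among the 91 listed genes, where 0.764% of all genes were called as negative. It was largest for cpt1b, at -2.14. The difference of -3.20 for angptl4 comes from the same fit and the same fish.

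**Figure D3:**
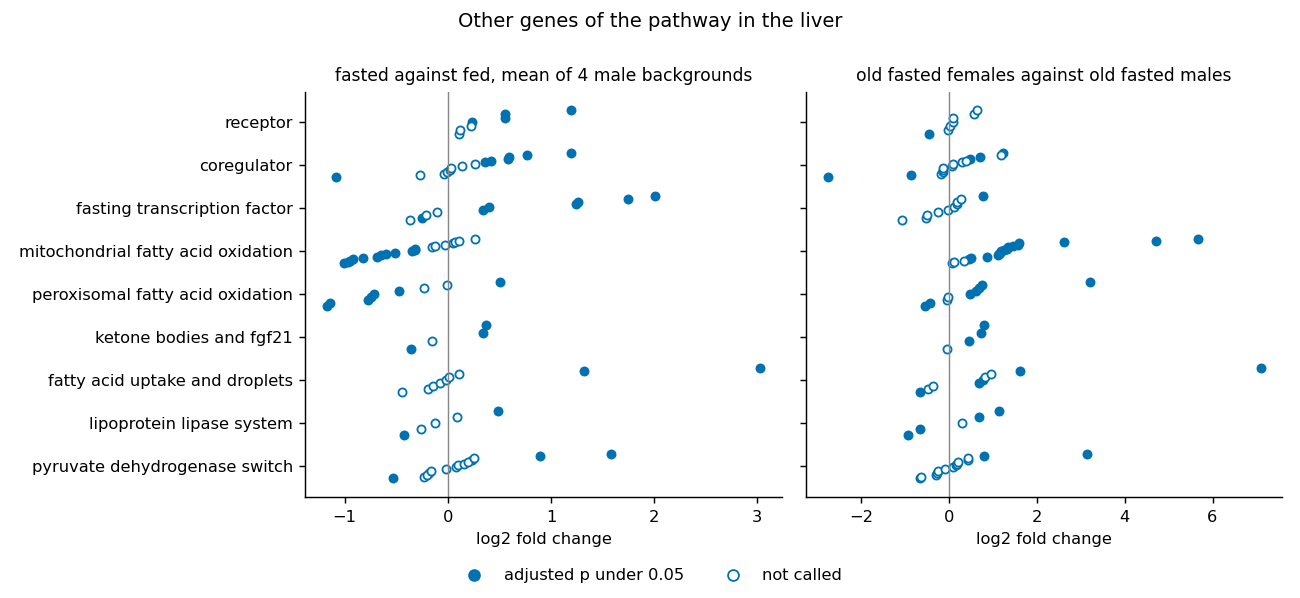
Log2 fold changes in the liver of 91 other genes of the pathway, by role, for fasted against fed males on the left and for old fasted females against old fasted males on the right, with filled points past the test. Most mitochondrial oxidation genes lie left of 0 on the left, where 12 of 19 fell, and they lie right of 0 on the right, where 16 of 19 were higher in females. Both panels use TMM scaling, and total counts put the median of all genes on the right at -0.98.

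The effect of aprt genotype on the 4 genes was read within each feeding state, age and sex. Of the 4 genes, pdk4 alone passed edgeR's test, in fasted old males, where Het livers at 58.2 to 80.8 CPM were all below WT livers at 101 to 132 CPM, a separation found in 17.3% of genes. The change was -0.81 ± 0.179 (edgeR adjusted p 0.031, 0.758% of genes called). It was called in 2 of 6 leave-one-out fits, being lost without WT fish 18 or 19 or Het fish 25 or 26. It was also lost in a fit of these groups alone (-0.80, edgeR adjusted p 0.265) and with total counts (-0.76, 0.123). In fasted old females pdk4 was 0.33 ± 0.167 in Het against WT, with or without fish 21, and was not called. The genotype effect differed between the sexes, male minus female, by -1.14 ± 0.245 (edgeR adjusted p 0.00995, 4.67% of genes called, 13 of 13 leave-one-out fits, and -1.14 without fish 21). In a fit of those groups alone this difference was -1.16 (edgeR adjusted p 0.129), and with total counts -1.06 (0.0641). For ppargc1a the difference between the sexes was 2.15 ± 0.838 (edgeR adjusted p 0.12) and 2.13 without fish 21, and it passed without WT male 20 (2.94, 0.046).

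In fed young males ppargc1a was higher in every Het liver than in every WT liver, and angptl4 was lower in every Het liver, a separation found in 26.6% of genes. The changes were 1.63 ± 0.6 and -1.72 ± 0.627 (edgeR adjusted p 0.108 and 0.104, where 5.8% of genes were called). Fitted on those groups alone both passed, at 1.60 (edgeR adjusted p 0.00682) and -1.75 (0.00365). DESeq2 called ppargc1a (1.63, adjusted p 0.0441) and did not call angptl4. Fed old males gave 1.06 ± 0.586 for ppargc1a and 0.63 ± 0.643 for angptl4, neither called, in a comparison with 7.33% of genes called.

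In fasted old females ppargc1a was at 79.1, 65.8 and 83.6 CPM in WT and at 20.8, 5.47, 27.1 and 33.5 CPM in Het fish, with no overlap, as in 11.9% of genes. Its change of -1.81 ± 0.573 did not pass (edgeR adjusted p 0.091, 2.03% of genes called), nor did it without fish 21 (-1.79, 0.14), but DESeq2 called it (-1.84, adjusted p 0.0343). ppara there was at 478, 108 and 458 CPM in WT and at 147, 22.5, 160 and 32.1 CPM in Het, a change of -1.94 ± 0.879 (edgeR adjusted p 0.253), or -2.28 without fish 21. In young fasted fish of both sexes, none of the 4 genes was called by edgeR, where 1 gene in all (0.00575%) was called, and without Het female 34 the ppara value moved from 0.17 to -1.22.

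Age was compared in livers of like sex, genotype and feeding. angptl4 was lower in old males in 3 of 4 such comparisons. In fed WT males it was lower by 5.52-fold (-2.46 ± 0.707, edgeR adjusted p 0.0252, 9.43% of genes called), with no overlap, as in 38.5% of genes, and this call was lost without old fish 4 or 5 or young fish 46. In fasted WT males it was lower by 20.2-fold (-4.33 ± 0.773, edgeR adjusted p 0.00845, 0.5% of genes called), and in fasted Het males by 24.9-fold (-4.64 ± 0.769, edgeR adjusted p 0.000301, 8.31% called). The 7 young fasted males were at 25.3 to 89.4 CPM and the 6 old fasted males at 1.19 to 4.91 CPM, with no overlap, as in 13.3% of genes in WT and 22.3% in Het fish. Leukocyte markers, with 7 genes found, summed to 13.4 to 379 CPM in these old and 11.8 to 17.6 CPM in these young livers. Old fish 18 and 26, the highest at 379 and 261.5 CPM, had the lowest angptl4, at 1.19 and 1.6 CPM. Old fish 20 and 27, at 18.4 and 13.4 CPM of the markers, had angptl4 at 4.91 and 3.86 CPM. Old fish 19 and 25, at 89 and 30.3 CPM of the markers, had angptl4 at 3.74 and 2.04 CPM. The part of leukocytes in the age change was not tested. The fasted WT call was lost without old fish 18 (edgeR adjusted p 0.0556) and in a fit of those groups alone (0.502); the fasted Het call was kept in 7 of 7 fits. In fed Het males the change was -0.11 ± 0.586, in a comparison where edgeR called 0 genes (0%), with 1633 at an unadjusted p under 0.05, and DESeq2 called 76. The Het minus WT difference of the age effect in fed males, added after the values were seen, was 2.35 ± 0.904 (edgeR adjusted p 0.233, 0.276% of genes called).

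In fasted females no age change of angptl4 was called. Young females ranged from 15 to 88.3 CPM and old females from 14.1 to 99.7 CPM, a change of 0.28 ± 0.441 (edgeR adjusted p 0.756), or 0.09 without fish 21. The age effect differed between the sexes by 4.76 ± 0.681, female minus male (edgeR adjusted p 0.000147). This comparison was added after the values were seen and called 0.954% of genes. The call was kept in 27 of 27 leave-one-out fits, from 4.56 to 5.12, and was 4.57 without fish 21.

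The age effect on pdk4 also differed between the sexes. In fasted Het males it was lower in old than in young fish by 2.11-fold (-1.08 ± 0.171, edgeR adjusted p 0.00019, 7 of 7 fits, 8.31% of genes called). The 3 old livers were below the 4 young ones, where 22.3% of genes separated in either direction. In fasted WT males the change was -0.09 ± 0.177 and was not called. In fasted females it was higher in old fish, at 192.5 to 381.5 CPM against 135 to 217 CPM with a small overlap, by 0.53 ± 0.118 (edgeR adjusted p 0.00747, 5.95% of genes called, 14 of 14 fits, and 0.53 without fish 21). That value is the mean of both genotypes. WT females were at 162 to 217 CPM when young and 192.5 to 251 CPM when old. Het females were at 135 to 196.5 CPM when young and 221 to 381.5 CPM when old. With total counts the female value was 0.45 (edgeR adjusted p 0.0589), and in a fit of the females alone 0.54 (0.0791). The female minus male difference, over both genotypes, was 1.11 ± 0.17 (edgeR adjusted p 0.00036, 0.954% of genes called), also added after the values were seen and kept in 27 of 27 fits. Whether that difference was unlike in WT and Het fish was not tested.

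ppara and ppargc1a had no called age change in any liver comparison. For ppara in fasted females the value was 0.61 ± 0.622 (0.44 without fish 21), and it was 2.00 (edgeR adjusted p 0.0116) without young Het female 34. That fish stood at 692 CPM, where the other 3 of its group were at 25, 27.6 and 31.9 CPM.

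Sex was compared in fasted livers, as the mean of both genotypes. In old fish angptl4 was 21.5-fold higher in females (4.43 ± 0.544, edgeR adjusted p 1.82e-07), with 14.1 to 99.7 CPM in 7 females and 1.19 to 4.91 CPM in 6 males. pdk4 was 2.77-fold higher (log2 1.47, 95% interval 1.22 to 1.72, edgeR adjusted p 9.51e-11), with 192.5 to 381.5 CPM in females and 58.2 to 132 CPM in males. The pdk4 means were 221 CPM in WT females and 118 CPM in WT males, and 278 and 67.6 CPM in Het. Neither gene overlapped between the sexes, as for 6.6% of genes. Both were called in 13 of 13 leave-one-out fits, in a comparison that called 32.6% of genes. Without fish 21 the values were 4.24 and 1.47, and those of ppargc1a and ppara, given next, were -1.18 and -1.40. ppargc1a was lower in old females (-1.19 ± 0.42, edgeR adjusted p 0.0284), with overlapping ranges of 5.47 to 83.6 and 33.6 to 149 CPM, and lost its call without male 20 or females 16 or 22. By genotype, the ppargc1a means were 76.1 CPM in WT females and 82.7 CPM in WT males. They were 21.7 CPM in Het females and 105 CPM in Het males. ppara was at -1.23 ± 0.644, not called. Its means were 348 CPM in WT females and 309 CPM in WT males, and 90.3 and 561 CPM in Het. The sex difference of the genotype effect, given above for ppargc1a, was called for neither gene.

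Hepatocyte markers were at 37156 to 65392 CPM in old fasted female and 79352 to 151001 CPM in old fasted male livers. Adipocyte markers, with 5 genes found, summed to 63.4 to 272 CPM in old fasted female livers and 55.9 to 89.5 CPM in old fasted males. Of these, cidec reached 246 CPM in liver. Another gene of that list, lepb, was at 0.48 CPM at most in any liver. The part of either list in the angptl4 and pdk4 differences was not tested.

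In young fasted fish ppargc1a was again lower in females (-1.24 ± 0.409, edgeR adjusted p 0.0237, 26.4% of genes called), and pdk4 was higher by 0.36 ± 0.118 (0.0227). The first call was lost without male 33 or female 30, and the second without males 32 or 33 or females 30 or 36. Females ran from 135 to 217 CPM of pdk4 and males from 116 to 160 CPM. angptl4 was at -0.33 ± 0.44 and did not pass. ppara was at -1.35 ± 0.631 (edgeR adjusted p 0.113), or -2.74 (0.000197) without female 34. Scaling by total counts put the median of all genes at -0.79 in young and -0.98 in old females against males. With TMM these medians were -0.01 and -0.07. Under it pdk4 turned to -0.45 in young fish (edgeR adjusted p 0.00876), and angptl4 passed there at -1.11 (0.0362), as did ppara at -2.11 (0.00736). In old fish none of the 4 directions turned with total counts: pdk4 was at 0.55, angptl4 at 3.62, ppargc1a at -2.05 and ppara at -2.05 (0.00795), all called.

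Among the list genes in old fasted fish, 36 of 91 were higher in females and 9 lower, where 14.3% of all genes were higher and 18.3% lower, at a median of 0.29 beside -0.07 for all genes. Without fish 21 there were 34 higher and 8 lower. Of the 19 mitochondrial oxidation genes 16 were higher and none lower, at a median of 1.19, with acsl1, an acyl-CoA synthetase, at 4.71 and cpt1b at 5.67. pdk2a was at 3.14 and fabp1, the liver fatty acid binding protein gene, at 7.1. These list values are with TMM scaling. With total counts the median of all genes in this comparison was -0.98.

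Muscle was taken from the same fasted fish. angptl4 was lower in old than in young males by 2.29-fold (-1.20 ± 0.219, edgeR adjusted p 0.00281, 13 of 13 fits, 10.1% of genes called). Young males were at 11.5, 16.3 and 13.7 CPM in WT and 17.6, 18.9, 23.2 and 14 CPM in Het, and old males at 11, 7.98 and 6.7 CPM in WT and 4.77, 4.81 and 7.45 CPM in Het. Every old male was below every young male, a separation found in 1.46% of genes. Leukocyte markers summed to 21.4 to 125.5 CPM in the old and 14.7 to 33.7 CPM in the young male muscles. The old muscles of fish 20, 25 and 27, at 21.4, 22.9 and 24.1 CPM of those markers, had angptl4 at 6.7, 4.77 and 7.45 CPM. Those of fish 18, 19 and 26, at 81.5, 77.1 and 125.5 CPM, had angptl4 at 11, 7.98 and 4.81 CPM. Skeletal muscle markers summed to 132158 to 254530 CPM in the old and 233125 to 351484 CPM in the young male muscles. The part of leukocytes or of skeletal muscle markers in the angptl4 change was not tested. In females the change, as the mean of both genotypes, was -0.58 ± 0.206 (edgeR adjusted p 0.268, 0.311% of genes called), or -0.63 without fish 21, and the ranges overlapped, at 12.7 to 26.6 CPM in young and 6.81 to 24.2 CPM in old fish. WT females were at 18.9 to 26.6 CPM when young and 6.81 to 12.6 CPM when old. Het females were at 12.7 to 18.7 CPM when young and 9.31 to 24.2 CPM when old. The age change in muscle was not tested within a genotype. The age effect did not differ between the sexes by the test added after the values were seen (0.62 ± 0.298, edgeR adjusted p 0.632, 0.57 without fish 21, with 0% of genes called, 1288 at an unadjusted p under 0.05, and 2 called by DESeq2).

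None of the other 3 genes had a called change in muscle. ppara was at 10.1 to 96.8 CPM, ppargc1a at 12.3 to 94 CPM and pdk4 at 34.3 to 105.5 CPM over 27 muscles. Het against WT, over the 4 groups of age and sex, gave -0.36 ± 0.266 for ppara, -0.58 ± 0.243 for ppargc1a, -0.23 ± 0.143 for pdk4 and -0.01 ± 0.148 for angptl4, with 0.0794% of genes called. Without fish 21 these were -0.51, -0.71, -0.31 and -0.06. Females against males gave 0.49 ± 0.149 for angptl4 (edgeR adjusted p 0.0653, 3.2% of genes called) and 0.41 ± 0.144 for pdk4 (0.1), or 0.48 and 0.35 without fish 21. DESeq2 called that difference in angptl4, at 0.5 (adjusted p 0.0264). The muscle of old male 25, with 2697 CPM of hepatocyte markers, was the lowest in angptl4, and without it the age change in males stayed called.

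**Figure D4:**
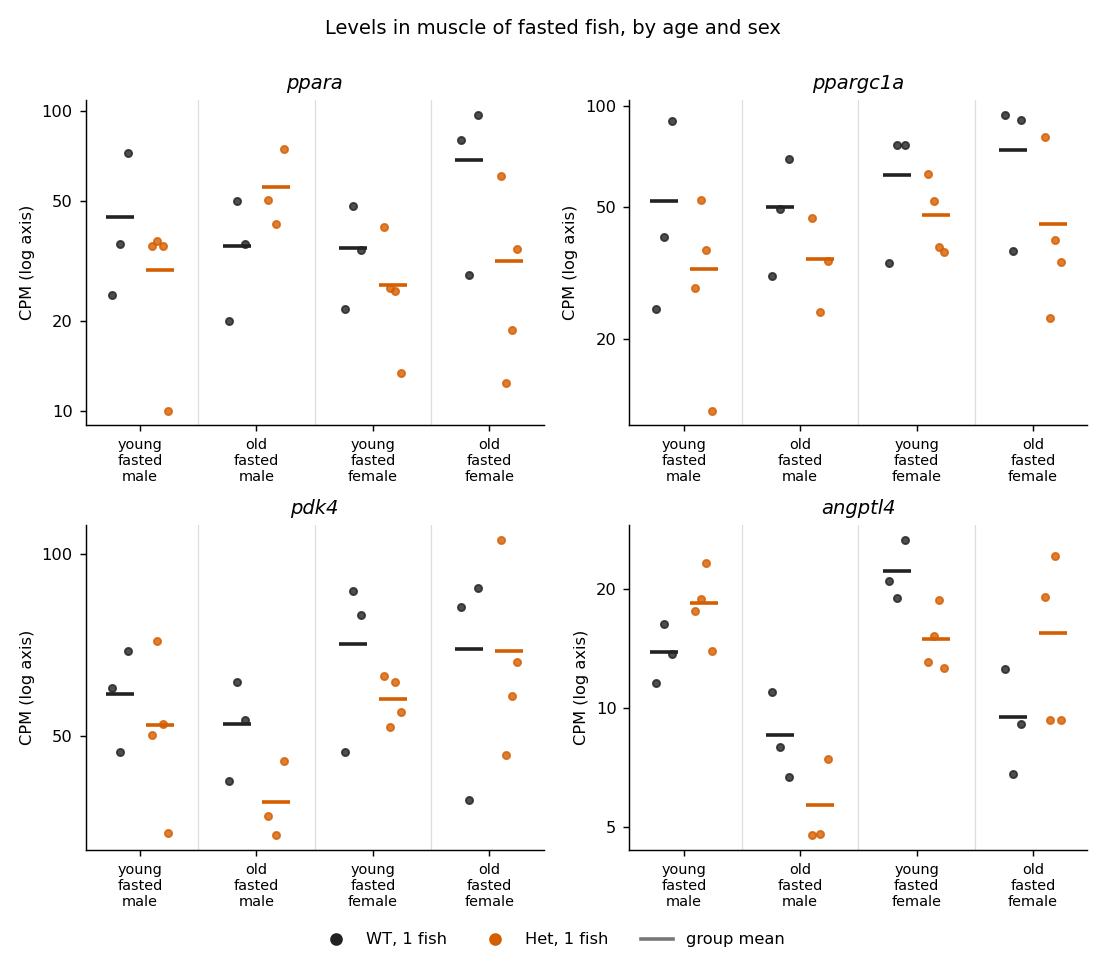
Levels of the 4 genes in 27 muscles of fasted fish in CPM on a log axis, 1 point per fish and a bar at each group mean. angptl4 of the 6 old males lies at 4.77 to 11 CPM, below the 7 young males at 11.5 to 23.2 CPM, and the other 3 genes overlap between young and old and between male and female fish.

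The order of group means separated few neighbours. In liver, ppara ran from 561 ± 181 CPM (SD, n = 3) in fasted old Het males to 51.1 ± 24.2 CPM (n = 4) in fed young Het males, and no gap between neighbours exceeded the larger SD of the 2 groups. pdk4 led in fasted old Het females at 278 ± 73.8 CPM (n = 4) and was lowest in fasted old Het males at 67.6 ± 11.8 CPM (n = 3), and 5 of 11 gaps exceeded the SDs. For angptl4 the order ran from 66.5 ± 44.8 CPM (n = 3) in fasted old WT females to 2.5 ± 1.2 CPM (n = 3) in fasted old Het males, with 3 of 11 gaps beyond the SDs. ppargc1a ran from 105 ± 12.9 CPM (n = 3) in fasted old Het males to 16.9 ± 2.49 CPM (n = 3) in fed young WT males, with 2 of 11. In muscle, 2 of 7 gaps for angptl4 exceeded the SDs and none for the other 3 genes.

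Liver and muscle of the 27 fasted fish were set side by side with a scaling common to both tissues. ppara was higher in liver by 2.00 ± 0.309 on the log2 scale (edgeR adjusted p 1.31e-07), with the liver above the muscle in 23 of 27 fish. pdk4 was higher by 0.85 ± 0.0903 (edgeR adjusted p 1.36e-11) in 27 of 27 fish, and angptl4 by 0.6 ± 0.204 (0.00655) in 19 of 27 fish. That angptl4 value is a mean over groups, and old males went the other way. With each tissue's own scaling, their angptl4 means were 3.28 CPM in liver and 8.56 CPM in muscle in WT. In old Het males they were 2.5 and 5.68 CPM. In every other fasted group the angptl4 mean was higher in liver. The angptl4 call was lost without fish 20 (0.44, edgeR adjusted p 0.0504). ppargc1a was at -0.31 ± 0.207 (edgeR adjusted p 0.157), and with the fish as a replicate block, which pairs the tissues, it passed at -0.36 (0.0322). With total counts ppargc1a was at 0.00. Without fish 21 the values of ppara, ppargc1a, pdk4 and angptl4 were 1.93, -0.35, 0.79 and 0.47. The paralogue pparab was higher in muscle, by a liver against muscle value of -1.25. This comparison called 86% of 18485 genes, and tissue cannot be told apart from library kit and sequencer, which differed between liver and muscle.

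Fish of a group differed from each other, and the 4 genes were compared in those deviations from the group means over 16 relations. In liver, ppara went with angptl4 (Pearson r 0.75, Spearman rho 0.72, n = 41, permutation p 0.00011 and 0.00017, adjusted 0.000587 and 0.000907), and without the 2 livers farthest out in ppara r was 0.73 and rho 0.69. ppargc1a went with angptl4 less closely (r 0.57, rho 0.50, permutation p 0.00373 and 0.00602, adjusted 0.0109 and 0.016), and without the 2 farthest livers r was 0.44 and rho 0.42 (adjusted permutation p 0.0604 and 0.0494). pdk4 in liver had no relation past the threshold, with r of 0.12 to ppara, 0.12 to ppargc1a and 0.47 to angptl4.

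In muscle the pairs were others. ppara, ppargc1a and pdk4 went together. ppara had r 0.87 and rho 0.81 with ppargc1a (n = 27, permutation p 3e-05 and 0.00013, adjusted 0.00024 and 0.000907). With pdk4 it had r 0.86 and rho 0.85 (permutation p 1e-05 for both, the smallest that 100000 shuffles can give, adjusted 0.00016). ppargc1a and pdk4 had r 0.82 and rho 0.76 (permutation p 0.00018 and 0.00048, adjusted 0.00072 and 0.00192). Without the 2 farthest muscles these r were 0.82, 0.82 and 0.76, and the rho 0.77, 0.82 and 0.70. angptl4 in muscle had r from 0.32 to 0.37 with the others, and none passed. Whether relations differed between liver and muscle was not tested.

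Between the tissues of a fish, ppara deviated alike (r 0.63, rho 0.62, n = 27, permutation p 0.00407 and 0.00702, adjusted 0.0109 and 0.016), as did ppargc1a (r 0.44, rho 0.56, permutation p 0.00784 and 0.00601, adjusted 0.0179 and 0.016). Without the 2 farthest livers ppara had r 0.61 and rho 0.54 (adjusted permutation p 0.0562 and 0.0547), and ppargc1a had r 0.37 and rho 0.51 (adjusted 0.0604 and 0.0434). Without fish 21, the calls over the 16 relations were as before except that rho of ppara between the tissues, at 0.54, did not pass (adjusted permutation p 0.0605). Of 6 fish more than 1 log2 unit below their group in liver ppara, 4 were also below it in muscle, fish 16, 22, 31 and 41. angptl4 had r 0.60 and rho 0.56 (adjusted permutation p 0.0544 and 0.078), and pdk4 r 0.35 and rho 0.39 (adjusted 0.193 and 0.108).

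**Figure D5:**
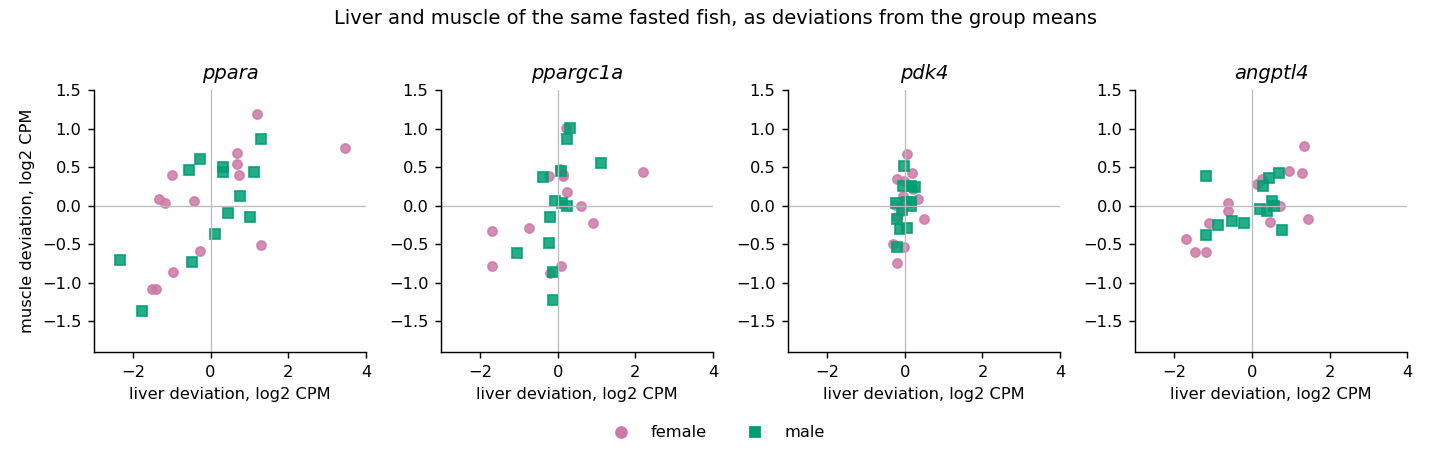
Deviation of each of 27 fasted fish from its group mean in liver (horizontal) and muscle (vertical), in log2 CPM, for the 4 genes, with males and females marked. ppara deviates from -2.32 to 3.47 in liver and falls along a rising band (r 0.63), whereas the relation of pdk4 (r 0.35) did not pass.

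The genes whose log2 CPM followed each of the 4 most closely over all libraries of a tissue were found among 9314 named genes in liver and 8762 in muscle. These r hold group differences as well as fish differences and are descriptions. In liver, ppara was followed by avpi1 (r 0.939), slc26a5 (0.938) and dusp8 (0.924), and ppargc1a by si:dkey-157l19.2 (LOC107392591, 0.872), mib2 (0.87) and tsc1a (LOC107386302, 0.865). pdk4 was followed by acaa2 (0.908), the mitochondrial thiolase of fatty acid oxidation, then pld1 (0.883) and arhgef3 (0.88). angptl4 was followed by bbox1 (0.896), whose enzyme makes carnitine, then slc35a3a (LOC107393273, 0.879) and dolk (0.878). ppara and angptl4, which went together within groups, had an r of 0.081 over all 41 livers, and pdk4 and angptl4 one of 0.681.

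In muscle, pdk4 was followed by acsl1 (0.948) and hadha (0.931), both genes of fatty acid oxidation, and primpol (0.921). ppara was followed by trak1a (LOC107378802, 0.939), got1 (0.901) and sept3 (0.899). ppargc1a was followed by pkma (LOC107381266, 0.88), txn2 (0.872) and rdh13 (0.87), and angptl4 by slc25a36 (0.86), klf11 (0.803) and si:ch211-251b21.1 (LOC107391393, 0.784).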

How the data were processed

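The authors deposited raw counts per gene for 68 libraries of polyadenylated RNA. Per the submitters' processing notes, FastQC 0.11.8, Trim Galore 0.6.4, cutadapt 3.4 and STAR 2.7.6a were used. The counting tool, strand setting, genome build and annotation are not given in the sources used here, so reads from overlapping or antisense genes cannot be told apart. Per the labels, livers were prepared with a KAPA mRNA HyperPrep kit and muscles with a stranded KAPA kit, each on its own sequencer.

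The deposited counts went into edgeR 4.0.16 under R 4.3.3 (quasi-likelihood test, TMM sizes, filterByExpr with minimum count 10 and total 15, one mean per group, Benjamini-Hochberg adjustment over all genes of a tissue, called under 0.05). CPM are TMM-scaled, with a prior count of 2 before log2. Deviations from group means were tested two-sided with 100000 shuffles within groups. The alternatives were DESeq2 1.42.0, RLE sizes, total counts, no filter, fits of only the groups compared, and each library left out. The scripts were tested on simulated data.

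Members and gene lists were chosen with earlier results of these data known, and 3 differences of effects, and the relations and listed genes without fish 21, were added after the values were seen. The rule for named genes took the 4 members, the 3 named genes closest to each per tissue, and per role up to 3 called list genes with the largest change in the mean fasting response. Some genes that the rule names are not reported here. Of 14280 LOC identifiers 5241 got a symbol from RefSeq (assembly NfurGRZ-RIMD1), used for names only. 34 columns of the muscle table alone, with 3.02% to 9.51% of muscle counts, were kept in the muscle fits. They were left out only of the comparison of liver against muscle.

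Each library is 1 tissue of 1 fish per the labels, which do not say whether fish shared a tank or spawn. Fish numbers pair liver with muscle, since the series' design text gives both tissues to the same fish. Liver and muscle deviations of a fish correlated over 15019 genes with a median r of 0.18, over 0.1 in 24 of 27 fish. No 2 libraries of a group agreed within counting noise (chi-square per degree of freedom at least 16.2).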

Additional observations from a re-analysis of the deposited data

Results flagged for a closer look

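The ppara level of young Het fasted female 34 in liver, 692 CPM, lay far from the other 3 fish of its group, and that of young Het fasted male 41 in muscle, 10.1 CPM, lay far below its group. These were the only 2 of 32 gene and group pairs with 4 fish in which a fish stood apart by Dixon's criterion, and chance flags about 1 in 20 groups.

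Effects differed between groups, by a test of the difference itself, in 5 of 28 tests over the 4 genes. The fasting response of angptl4 differed between old and young males by -3.20 on the log2 scale (1.01% of all genes called). The fasting response of pdk4 differed between Het and WT old males by -1.0 (1.25% called). That call was lost in 8 of 13 leave-one-out fits, with total counts and with no filter. The genotype effect on pdk4 in fasted old livers differed between males and females by -1.14 (4.67% called). That call was lost with total counts and in a fit of those groups alone. The age effect in fasted livers differed between females and males by 1.11 for pdk4 and by 4.76 for angptl4 (0.954% called). These values are means of both genotypes. Both are from a comparison added after the values were seen.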

How the results depend on the processing

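Of the changes in the 4 genes, 116 of 116 kept direction and call with RLE sizes, 115 with no filter, 111 with DESeq2 and 102 with total counts. Fits of only the groups compared kept 100, with 6 calls lost and 6 gained. Counts of called genes moved by over 1.5 times in 17 comparisons with DESeq2, 17 with total counts, 16 with only the groups compared and 7 with no filter. Shallow genes limit little here, since the lowest count of any of the 4 genes was 51. The cause of the shifts below was not tested.

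For the fasting responses, DESeq2 gave a call for ppara in young WT (2.67) and old WT males (2.44), and elsewhere for ppargc1a in Het against WT, in young fed males (1.63) and old fasted females (-1.84). Fits of only the groups compared called ppara in young Het (1.98) and old WT males (2.42) and ppargc1a in old Het males (1.33), and lost ppargc1a in old WT males (2.03). Total counts lost pdk4 in old Het males (-0.51). Under total counts 6 values turned sign: ppara (-0.20) and pdk4 (-0.06) for Het against WT in old fed males, pdk4 for Het against WT in young fasted fish (0.09), pdk4 for young females against males (-0.45), ppargc1a for the sex difference of the age effect (-0.08) and ppargc1a for liver against muscle (0.00). With the fish as a replicate block, ppargc1a for liver against muscle passed at -0.36, and the block changed no other call of the 4 genes.

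Total counts also brought relations past the threshold: in liver, ppara with ppargc1a (0.57) and with pdk4 (0.43), and pdk4 with angptl4 (0.57); in muscle, angptl4 with ppargc1a (0.48) and with pdk4 (0.56); and between tissues, pdk4 (0.50) and angptl4 (0.65). Without the 2 farthest libraries, 3 lost the threshold by Pearson's r: ppargc1a with angptl4 in liver (0.44), and ppara (0.61) and ppargc1a (0.37) between tissues. By Spearman's rho only that of ppara did, of these 3.

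Leaving out each library in turn gave 1492 unchanged, 86 reversed, 35 lost and 11 gained results. In the fasting responses the ranges were 2.16 to 3.18 for ppara and 2.16 to 2.46 for ppargc1a in young WT males, 1.28 to 2.64 for ppargc1a in old WT males, and -2.51 to -1.82 for angptl4 in old Het males. The mean response ranged from -0.01 to 0.05 for pdk4 and from -0.07 to 0.15 for angptl4. For ppargc1a, Het minus WT in old males ranged from -1.34 to 0.02, and old minus young from -0.10 to 0.57.

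For Het against WT, values that turned sign ranged from -0.11 to 0.03 (pdk4, young fed males), -0.34 to 0.23 (ppara, old fed males), -0.04 to 1.10 (ppargc1a) and -0.83 to 0.06 (angptl4) in old fasted males, and -0.70 to 0.19 (angptl4, old fasted females). In young fasted fish they ranged from -1.22 to 0.42 (ppara) and -0.09 to 0.02 (pdk4), and male minus female in old fish from -0.60 to 0.33 (angptl4). For age in liver they ranged from -0.60 to 0.02 (ppara) and -0.35 to 0.63 (ppargc1a) in WT fed, -0.18 to 0.47 (ppara) and -0.28 to 0.09 (angptl4) in Het fed, and -0.82 to 0.33 (ppargc1a) in WT fasted males. The sex difference of the age effect ranged from -0.13 to 1.51 (ppara) and -0.15 to 0.67 (ppargc1a), and the genotype difference in fed males from -0.94 to 0.04 (ppargc1a).

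In muscle they ranged from -0.10 to 0.04 (angptl4, genotype), -0.15 to 0.35 (ppargc1a, age in males), -0.15 to 0.24 (ppargc1a) and -0.02 to 0.26 (pdk4) for age in females, -0.28 to 0.23 (ppargc1a, sex difference of the age effect) and -0.21 to 0.05 (ppara, sex). Liver against muscle ranged from -0.45 to -0.28 for ppargc1a and from 0.44 to 0.63 for angptl4.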
